A study of Mus musculus with 4 samples.

Results

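The B cells of the inflamed mouse esophagus made up 111 of the 6054 immune cells in the series. They were selected on measured counts: a cell was taken as a B cell when its unique molecular identifiers (UMIs, 1 per captured RNA molecule) of Cd79a, Cd79b and Ms4a1 summed to 3 or more, with at least 1 UMI of Cd79a, 0 of the T cell gene Cd3e and fewer than 5 of the myeloid gene Lyz2. Cd79a and Cd79b encode the signalling chains of the B cell receptor and Ms4a1 encodes CD20. Because these genes chose the cells, their levels in the chosen cells against other cells are descriptions and carry no test.

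The cells came from 5 wild-type mice and 5 Il20rb knock-out mice (Il20rb-/-, chr9:100457719-100486473 in GRCm38, encoding a receptor chain shared by IL-19, IL-20 and IL-24). All 10 mice underwent the same model of eosinophilic esophagitis, in which food allergen inflames the esophagus. Their ears were treated with 1 nmol of MC903 (calcipotriol, a vitamin D analogue) and ovalbumin each day for 14 days. Ovalbumin at 1.5 g per litre of drinking water followed from day 14 for 4 days, with 50 mg more by gavage on days 15 and 17, and tissue was taken on day 18. No unchallenged animal is among the samples, and the labels used here give no strain, age or sex. Cells of each animal carried a hashtag (an antibody with a DNA barcode), were pooled, sorted as live CD45+ cells and split over 2 wells, so the animal is the replicate and the wells are technical repeats.

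B cells carry a membrane immunoglobulin as antigen receptor, which pairs with CD79A and CD79B to signal. Mature naive B cells hold IgM and IgD on their surface, and B-1 cells are a self-renewing class best known from body cavities. On activation a B cell can become an antibody-secreting cell, which devotes much of its RNA to immunoglobulin, expands its endoplasmic reticulum and, for polymeric IgM and IgA, adds the joining chain encoded by Jchain. Class switching replaces the IgM constant region by that of IgG, IgA or IgE.

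The hashtag decides which animal a B cell is counted in, and most B cells bore the tag of wild-type animal 3. The barcodes of the animals with 7 or more B cells are shown first, together with that of wild-type 5, the tag nearest to that of wild-type 3; capitals mark positions that differ from the tag of wild-type 3.
Wild-type 3, B0303: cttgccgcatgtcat
Wild-type 1, B0301: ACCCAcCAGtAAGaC
Wild-type 2, B0302: GGtCGAgAGCAtTCA
Wild-type 5, B0305: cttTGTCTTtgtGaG
Knock-out 1, B0306: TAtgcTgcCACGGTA
The tags are 15 bases long. The tag of wild-type 3 differed from the 9 others at 8 to 13 positions, within the 7 to 14 over all 45 pairs of tags.

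The next sequences are the 250 bases before the start sites of a gene of the gate, Cd79a, of Cd22, an inhibitory co-receptor of B cells, and of Jchain, the gene that divides these B cells below. They are RefSeq sequences of GRCm38.p6, read along each gene's strand, at chr7:24897247-24897496 (+), chr7:30879029-30879278 (-) and chr5:88527898-88528147 (-). Capitals mark matches on either strand to the EBF palindrome (TCCC, then 2 bases of any kind, then GGGA), the E box CAGGTG, the ETS core ACTTCC and the octamer ATGCAAAT, motifs chosen after several had been looked at.
Cd79a: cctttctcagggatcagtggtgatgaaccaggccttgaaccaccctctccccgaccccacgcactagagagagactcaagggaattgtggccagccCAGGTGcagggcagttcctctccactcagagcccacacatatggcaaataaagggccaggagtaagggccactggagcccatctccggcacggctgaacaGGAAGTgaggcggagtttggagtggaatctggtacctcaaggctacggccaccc
Cd22: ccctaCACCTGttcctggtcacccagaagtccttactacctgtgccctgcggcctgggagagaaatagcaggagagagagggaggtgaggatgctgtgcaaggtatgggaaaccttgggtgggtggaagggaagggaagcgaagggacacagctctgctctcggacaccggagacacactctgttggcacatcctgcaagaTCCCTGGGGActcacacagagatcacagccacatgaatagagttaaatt
Jchain: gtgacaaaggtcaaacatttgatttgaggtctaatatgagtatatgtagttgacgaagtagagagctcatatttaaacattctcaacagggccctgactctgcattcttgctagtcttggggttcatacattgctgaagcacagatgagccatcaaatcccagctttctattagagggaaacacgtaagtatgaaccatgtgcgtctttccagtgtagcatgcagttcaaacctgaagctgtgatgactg
Cd79a held an E box 154 to 149 bases and an ETS core 54 to 49 bases before its start. Cd22 held the EBF palindrome 49 to 40 bases and an E box 245 to 240 bases before its start, and the Jchain window held none of the 4 motifs. Of the 30 genes of the B cell marker list, 20 have a promoter entry, with 25 windows. The EBF palindrome was in 1 of these 25 windows against 0.779% of all 32851 windows of that length, the E box in 8 against 17.2%, the ETS core in 10 against 19.7% and the octamer in 1 against 1.601%. Such matches are descriptions of the letters only.

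The B cell label was checked against marker genes, most of which the gate did not use. All 30 genes of the B cell list had UMIs in the 111 cells and 29 were higher than in the remaining cells, against 3114 of all 4960 genes with 10 or more UMIs in B cells. The 29 include the gate genes Cd79a, Cd79b and Ms4a1, whose higher level the gate fixed in advance. Levels are in CPM, the usual depth-scaled count unit, with immunoglobulin genes and Jchain left out of the depth, pooled over the cells named. The exception was Cd83, an activation marker shared with dendritic cells, at 104 CPM in B cells against 127. Ebf1, a transcription factor that sets up the B lineage, stood at 939 CPM against 0.979 in the remaining cells, and had a UMI in 84.7% of B cells, in 0 of 177 Cd3e cells and in 0.364% of 3568 cells with Lyz2 at 5 or more. The median depth was 2900 UMIs in B cells, 3201 in Cd3e cells and 6227 in the Lyz2 cells. Ly6d, a surface protein of lymphoid cells, stood at 1486 against 2.30 CPM, Ighd at 429 against 0.691 and Fcmr, the receptor for IgM, at 242 against 0.230. After the gate genes, the genes with the largest pooled ratio of B cells to the rest were Igkc, Jchain, Ighm, Mzb1, Iglv1, Iglc3, Iglc2, Ly6d, Iglc1, Ebf1, Ighd, Gm30211, Txndc5, Bank1 and Fcmr. Some of these ranks rest on 14 cells that are described below: they hold 7311 of the 7316 Jchain UMIs and 1044 of the 1055 Iglv1 UMIs, and in the other 97 B cells Jchain stood at 15.3 CPM, against 73.0 in the rest. Markers of other cell types were mixed. All 5 mast cell and basophil markers, 6 of 7 markers of group 2 innate lymphoid cells and 6 of the 10 T cell markers other than Cd3e, which the gate held at 0, had no UMI. The summed T cell markers stood at 133 CPM in B cells against 198 in the rest, mostly from Cd2, which mouse B cells also express and which had a UMI in 33 of the 111 cells (120 against 53.1 CPM). Pecam1, an endothelial and leukocyte adhesion gene, stood at 88.8 against 8.23 CPM. Bst2, a marker of plasmacytoid dendritic cells, stood at 164 against 663, and the monocyte gene Ly6c2 at 291 against 434, with 128 of its 131 UMIs in cells that are rich in Jchain. The part of other cells in these levels was not tested. No doublet caller was used; 8 of the 111 cells carried 2 or more markers of 1 other cell type and 0 carried 3 or more.

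Few cells lay near the lower edge of the gate. Of cells meeting its other conditions, 4 had a marker sum of 3, 4 had a sum of 4, 0 had a sum of 2 and 4 had a sum of 1. Of the 4 cells at a sum of 1, 3 had Jchain at 5 or more UMIs. A further 4 cells met the sum without any Cd79a UMI, 3 met it with Lyz2 at 5 or more, and 0 met it with a Cd3e UMI. The 2 barcodes found in both wells belonged to no B cell.

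B cells were unevenly spread over the animals. Wild-type animal 3 held 78 of the 111, the other 4 wild-type animals 23 and the knock-out animals 10. As a share of each animal's cells, B cells made up 1.00% in wild-type 1 (9 of 897 cells), 1.10% in wild-type 2 (7 of 637), 9.64% in wild-type 3 (78 of 809), 0.600% in wild-type 4 (3 of 500) and 0.692% in wild-type 5 (4 of 578). In the knock-out animals they made up 0.798% in animal 1 (7 of 877), 0.256% in animal 2 (1 of 390), 0.369% in animal 3 (1 of 271), 0.240% in animal 4 (1 of 416) and 0% in animal 5 (0 of 679, which allows a share of up to 0.442%). The exact binomial 95% interval of wild-type 3 was 7.70 to 11.9%, above the intervals of the other 9 animals, which reached at most 2.25%; intervals cover counting error only. The 78 cells were divided 39 and 39 between the wells, and the animal's median depth of 5191 UMIs per cell lay within the range of all animals, 3569 to 6034.

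**Figure D1:**
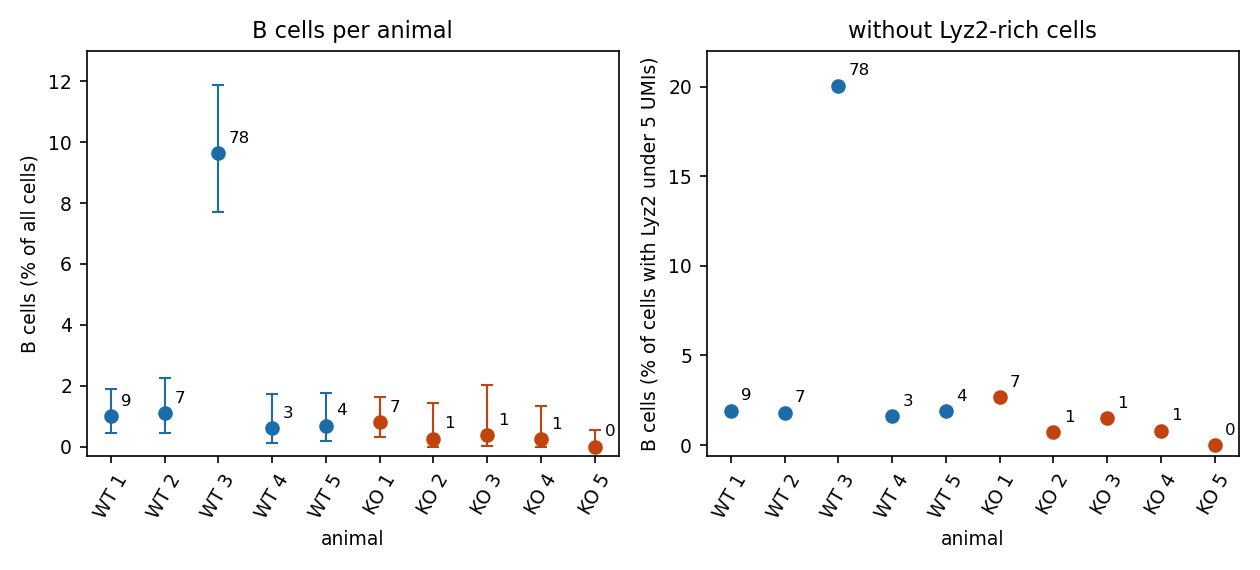
B cells per animal as % of all its cells (left, bars are exact binomial 95% intervals) and as % of its cells with Lyz2 under 5 UMIs (right), with the number of B cells beside each point; wild-type (WT) in blue, knock-out (KO) in orange. Wild-type 3 stands at 9.64% and 20.1%, and the other animals at most at 1.10% and 2.68%.

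Per genotype, B cells made up 2.61 ± 3.94% (SD, n = 5) of wild-type and 0.333 ± 0.293% (n = 5) of knock-out cells (2-sided exact permutation p = 0.0238, adjusted p = 0.0952 by Benjamini-Hochberg over 4 share tests; the smallest p this design can give is 0.00794). The groups overlapped, since knock-out 1 exceeded wild-type 4 and 5. Leaving out wild-type 3 gave means of 0.849% and 0.333% (exact permutation p = 0.0397, adjusted p = 0.159). In well 1 alone the exact permutation p was 0.0317 (adjusted p = 0.127) and in well 2 alone 0.127 (adjusted p = 0.508). Thinning each cell to 1000 UMIs set all cells to 1 depth but also changed the gate. There a B cell needed at least 1 UMI of Cd79a and 0 of Cd3e after thinning, without the marker sum, and Lyz2 was not thinned. Wild-type animals then averaged 2.14% and knock-out animals 0.287% (exact permutation p = 0.00794, adjusted p = 0.0317).

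With denominators that left out cells rich in Lyz2, or all but B and Cd3e cells, the p was higher. Cells with Lyz2 under 5 were not free of myeloid cells. The neutrophil gene Cxcr2 had a UMI in 468 cells outside the gate, and 54 of these had Lyz2 at 5 or more. Among cells with Lyz2 under 5, the share was 5.46 ± 8.16% in wild-type animals, against 1.14 ± 1.01% with the knock-out (n = 5 each, exact permutation p = 0.103, adjusted p = 0.206), and knock-out 1, at 2.68%, lay above every wild-type animal but wild-type 3. Of the sum of B cells and Cd3e cells, B cells held 30.6 ± 20.5% and 14.8 ± 15.9% (n = 5 each, exact permutation p = 0.198, adjusted p = 0.265). They ranged from 9.38% to 61.9% in wild-type animals and from 0 to 41.2% with the knock-out.

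The B cells fell into 2 classes that a single gene separated. In 97 cells Jchain gave 0 to 2 UMIs, and in 14 cells it gave 226 to 1024. The 14 Jchain-high cells came from wild-type 3 (13 cells) and wild-type 1 (1 cell). A further 6 cells had Jchain at 5 or more UMIs and Mzb1 but failed the gate on its marker sum or on Cd79a; 5 were from wild-type 3 and 1 from knock-out 1. As a share of all cells these 6 made up 0.124 ± 0.276% in wild-type animals, against 0.0228 ± 0.0510% with the knock-out (n = 5 each, exact permutation p = 1, adjusted p = 1). Only wild-type 3 and knock-out 1 held such cells, so every split gives at least this difference and the p could not be lower. The test therefore cannot decide whether the genotypes differ, and the share leaves out the 14 Jchain-high cells in the gate.

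**Figure D2:**
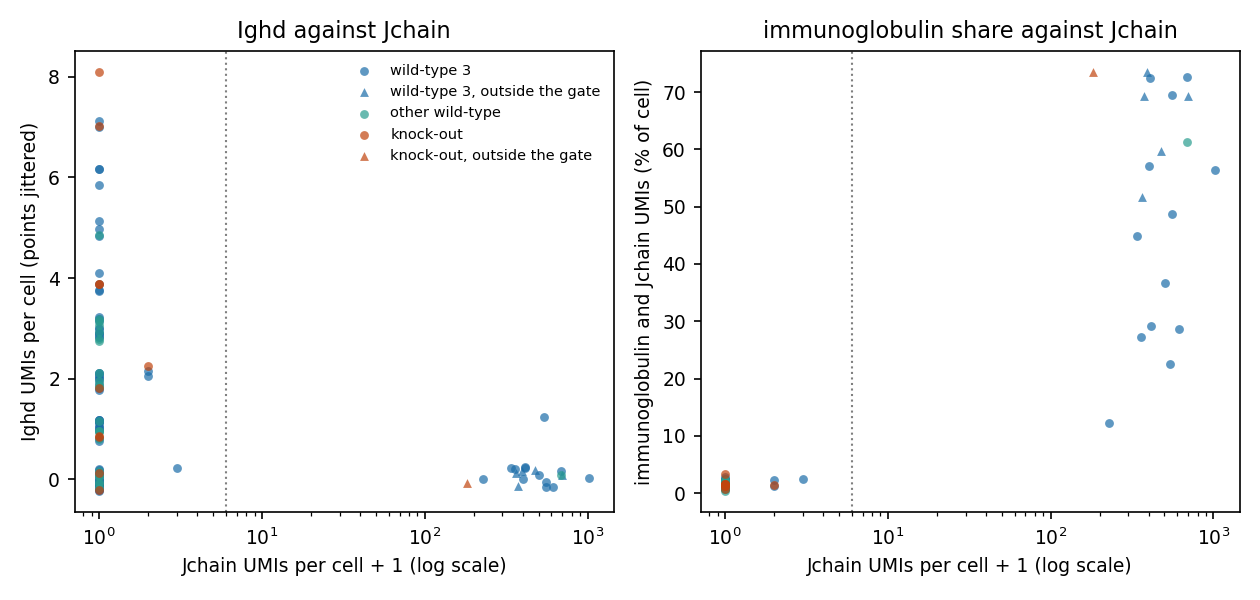
Each point is a B cell (circle) or an antibody-secreting cell outside the gate (triangle); the x axis is Jchain UMIs + 1 on a log scale, with the split at 5 UMIs dotted, against Ighd UMIs (left) and the % of the cell's UMIs in immunoglobulin genes and Jchain (right). No cell lies between 2 and 180 Jchain UMIs, and every Jchain-high cell has at most 1 Ighd UMI.

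The Jchain-high cells had the profile of antibody-secreting cells, by a list that shares no gene with the gate. All 10 genes of the antibody-secreting list were higher in them than in Jchain-low cells (median log2 ratio 4.11), against 2293 of all 4960 genes (median -0.0916); 20 CPM were added to both sides of every such ratio, and Jchain itself made the split. Mzb1, an endoplasmic reticulum chaperone for IgM, stood at 7975 against 389 CPM. Txndc5, a protein disulfide isomerase, stood at 2957 against 88.9, and Xbp1, which drives expansion of the secretory apparatus, at 2062 against 70.5. Prdm1, encoding the plasma cell regulator Blimp-1, and Tnfrsf17, encoding the survival receptor BCMA, stood at 274 and 403 CPM and had 0 UMIs in the 97 Jchain-low cells. These cells are called antibody-secreting-like here.

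The programme of resting B cells was lower in the same cells. Ebf1 stood at 24.2 against 1288 CPM, and Cd22 and Pax5 had 0 UMIs in the 14 cells and 343 and 255 CPM in the 97. Of the MHC class II list, which serves antigen presentation to helper T cells, 0 of 10 genes were higher (median log2 ratio -2.54). H2-Aa stood at 306.1 against 2931 CPM and the invariant chain gene Cd74 at 3190 against 10109. Of the 19 genes of B cell receptor signalling 1 was higher (median -1.64). That gene, Cd81, a tetraspanin, stood at 306.1 against 132 CPM. The list includes the gate genes Cd79a and Cd79b, whose levels in both classes depend in part on the rule. As 13 of the 14 cells came from 1 animal, these ratios compare cells and not conditions, and no test was made. Pooled levels also weigh deeper cells more. Of the 14 cells, 5 from wild-type 3 held 18357 to 24487 UMIs each, against a median of 14410.

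Immunoglobulin RNA divided the classes by amount more than by kind. Immunoglobulin genes and Jchain took 12.3 to 72.6% of the UMIs of a Jchain-high cell (median 46.8%) and 0.288 to 3.28% of those of a Jchain-low cell (median 1.44%). Ighm (chr12:113418826-113422730) gave 737 to 1957 UMIs per Jchain-high cell and 1 to 44 per Jchain-low cell. As a background, Ighm had a UMI in 27.1% of Cd3e cells, at no more than 5 UMIs. Ighd (chr12:113407535-113416324) showed the reverse order: 69 of 97 Jchain-low cells had a UMI and 1 of 14 Jchain-high cells did, against 0.565% of Cd3e cells, although the Jchain-high cells were deeper (median 14410 against 2716 UMIs).

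Switched classes were almost absent from the counts. A heavy chain class was called where it held at least 2 UMIs and 80% of the heavy chain constant UMIs. IgM or IgD was called in 110 of 111 B cells (99.1%, exact binomial 95% interval 95.1 to 100.0%), and 1 cell had no call. IgG, IgA and IgE were called in 0. Taking 3 counts as the limit of a count of 0, this allows up to 2.70% each, but only where the genes of a class could be counted. Ighg1, Ighg2c and Ighe gave 0 UMIs in the B cells and 0 in all other cells, so whether these genes could be counted here is not shown. In the B cells Ighg2b gave 4 UMIs in 1 cell, Ighg3 gave 4 in 2 cells and Igha gave 5 in 5 cells. The call pools Ighm and Ighd; the 6 cells outside the gate received it with 0 Ighd UMIs, and the 14 Jchain-high cells with 1 in all. These mice had been exposed to ovalbumin for 18 days, and IgE transcripts were not detected in these B cells, or in any other cell, at this depth.

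A light chain was called where it held at least 3 UMIs and 80% of the light chain constant UMIs. All 14 Jchain-high cells were called kappa, with 1380 to 6249 Igkc UMIs each. Among the 97 Jchain-low cells 36 were called kappa, 8 lambda and 53 neither, because constant region UMIs of both loci occurred together: Igkc had a UMI in 92 of them and Iglc2 in 87. Iglc2 had 0 UMIs in the 177 Cd3e cells and a UMI in 0.224% of the Lyz2 cells, so its presence in B cells exceeded that background. Iglc1, Iglc2 and Iglc3 are near-identical, and how reads were divided among them is uncertain.

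The variable segments of wild-type 3 were shared between cells. A segment was called where it held at least 2 UMIs and 80% of the UMIs of its locus. Both a heavy and a kappa segment were called in 16 of the 18 Jchain-high or outside-gate cells of wild-type 3. Of these 16, 5 paired Ighv1-22 (chr12:114746273-114746566) with Igkv10-96 (chr6:68631965-68632430), 4 paired Ighv1-39 (chr12:114914599-114914892) with Igkv17-121 (chr6:68036818-68037318), 2 paired Ighv1-47 with Igkv10-96 and 2 paired Ighv12-3 (chr12:114366526-114366819) with Igkv4-91 (chr6:68768555-68769103). The other 3 pairs were seen once each. The Ighv1-22 pair occurred in both wells, in 2 and 3 cells, and so did the Ighv1-39 pair, in 2 and 2. As background, Ighv12-3 with Igkv4-91 is the pair known from B-1 cells that bind phosphatidylcholine.

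A further cell of wild-type 3 had Ighv1-22 with 70 UMIs of Igkv10-96 and 40 of Igkv3-11 and so had no kappa call. The antibody-secreting-like cell of wild-type 1 paired Ighv10-1 (chr12:114479007-114479451) with Igkv8-19 (chr6:70340876-70341448), a pair absent from the called cells of wild-type 3. The files hold no junction sequences, so shared segments do not show shared descent, and closely related segments of the Ighv1 family could exchange reads. In each of the 5 cells of the leading pair, 9 to 24 heavy UMIs and 36 to 102 kappa UMIs supported the call. Among Jchain-low cells, a heavy segment was called in 2 of 97 and a kappa segment in 4 of 97, so their repertoire could not be read at this depth.

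Within wild-type 3, the cells of the leading pair differed from the rest in the proliferation gene Mki67 and in immunoglobulin share. The 5 Ighv1-22 with Igkv10-96 cells had 6 to 15 Mki67 UMIs each. The other 13 Jchain-rich cells of that animal had 0 or 1, and the 4 Ighv1-39 with Igkv17-121 cells had 0. Immunoglobulin genes and Jchain took 12.3 to 29.1% of UMIs in the 5 cells and 36.6 to 73.5% in the 13. The 5 cells were also deeper, at 18357 to 24487 UMIs against 5604 to 14970, and the part of depth in the Mki67 difference was not tested. The cell with Ighv1-22 and a mixed kappa signal had 0 Mki67 UMIs in 14970. In all Jchain-low cells Mki67 gave 5 UMIs, in 2 cells. The pattern was noticed after the values were seen and rests on 1 animal.

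**Figure D3:**
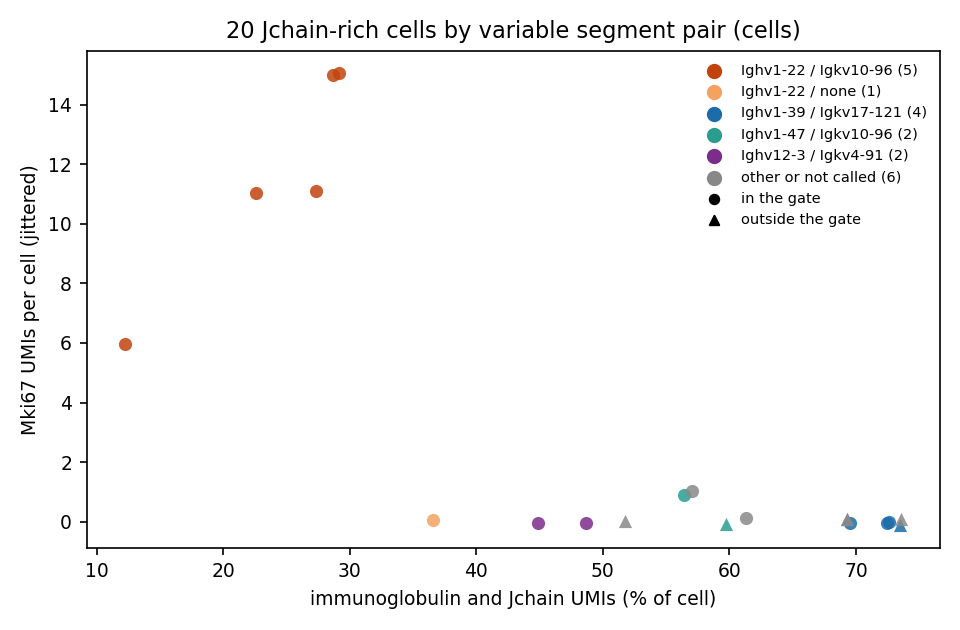
Each point is 1 of the 20 Jchain-rich cells, 14 in the gate (circles) and 6 outside it (triangles), with the % of its UMIs in immunoglobulin genes and Jchain on the x axis and its Mki67 UMIs on the y axis; colours give the called pair of variable segments. The 5 Ighv1-22 with Igkv10-96 cells lie at 6 to 15 Mki67 UMIs and at most 29.1% immunoglobulin, apart from all other cells.

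The 97 Jchain-low cells all had an Ighm UMI, and 69 had one of Ighd. Cd74 stood in them at 10109 CPM and H2-Aa at 2931, against 10184 and 3018 in the other immune cells. They came from wild-type 3 (65 cells, median 3030 UMIs), the other wild-type animals (22 cells, 1800 UMIs) and the knock-out animals (10 cells, 2776 UMIs, of which 7 came from knock-out 1). Lists below are counted over their measured members and set beside all 4960 genes, of which 2396 were higher in wild-type 3 than in the other animals (median log2 ratio -0.0243). The 4960 genes each have 10 or more UMIs in B cells, and list members need not. A list member without a UMI in these cells counts as not higher, so the shares are not strictly alike. Each ratio sets 1 animal against the pooled cells of the others, so no test was made and 95% Poisson intervals cover counting error only.

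Receptor and identity genes went both ways. Of the B cell list 15 of 30 genes were higher in wild-type 3 (median -0.00388) and of B cell receptor signalling 10 of 19 (median 0.0477). Both lists include Cd79a and Cd79b, and the B cell list also Ms4a1. The gate sets a lower limit on these genes in every animal, so their ratios depend in part on the rule. Ms4a1 stood at 1363 CPM in wild-type 3, 614 in the other wild-type animals and 967 with the knock-out. Ly6d stood at 2188, 1064 and 1900 CPM in the same order. Cr2, encoding complement receptor CD21, stood at 222, 102 and 533 CPM, so wild-type 3 lay between the other groups. Ebf1 stood at 1250 CPM in wild-type 3, 1330 in the other wild-type animals and 1533 with the knock-out. Bank1, a B cell scaffold protein, stood at 522, 512 and 533 CPM. Of MHC class II, 1 of 10 genes was higher in wild-type 3 (median -0.160), and H2-Aa stood at 2883, 2906 and 3366 CPM. Inhibitory receptors were higher in 6 of 11 (median 0.142), and Cd22 stood at 352, 307 and 333 CPM.

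Markers of naive follicular cells and of B-1 cells went opposite ways. Of the follicular or naive list 1 of 8 genes was higher in wild-type 3 (median -0.674): Ighd stood at 514 CPM there, against 737 in other wild-type animals and 967 with the knock-out, and S1pr1, the receptor for exit from lymphoid tissue, at 190 against 512 and 267. Of the B-1 list 5 of 7 were higher (median 0.902). Bhlhe41, a transcription factor of B-1 cells, gave 27 UMIs in the 65 cells of wild-type 3, 2 in wild-type 1, 1 in knock-out 1 and 0 in the other animals with B cells, or 109 CPM (interval 72.0 to 159) against 38.0 (7.84 to 111) in the others. Zbtb32 stood at 64.7 CPM (37.0 to 105) against 12.7 (0.321 to 70.6), so both pairs of intervals overlapped. Spn, encoding CD43, stood at 20.2 against 25.4 CPM, while Cd5, the classic surface marker of B-1a cells, gave 0 in all B cells. Ahnak and Plac8 of that list, at 396 and 1185 CPM in wild-type 3, are also high in the non-B cells (1546 and 1556 CPM), and so is Cd9.

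**Figure D4:**
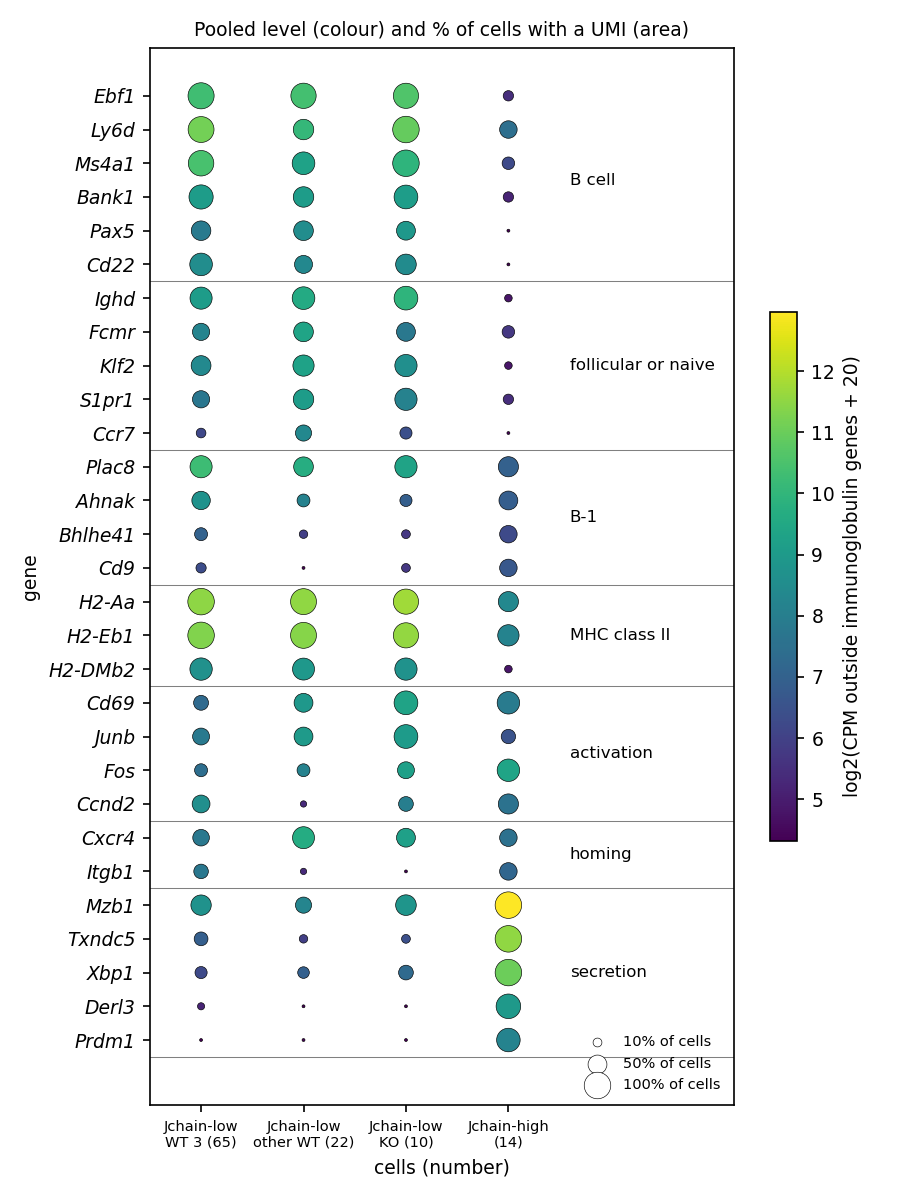
Dots give the pooled level (colour, log2 of CPM outside immunoglobulin genes + 20) and the % of cells with a UMI (area) of named genes in Jchain-low B cells of wild-type 3 (WT 3), other wild-type (WT) and knock-out (KO) animals and in Jchain-high B cells. The secretion genes are brightest in the Jchain-high column, and Cxcr4, Cd69 and Ccr7 are lower in wild-type 3 than in the other wild-type animals.

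The 10 genes with the highest ratio of wild-type 3 to the others, among those with 30 or more UMIs, were Itgb1, Lgals1, S100a4, Hist1h2ae, S100a6, Ptprj, Chmp2a, A530040E14Rik, Ccnd2 and Alyref. Itgb1, the integrin beta-1 chain, gave 48 UMIs there, 1 in wild-type 1 and 0 in the others, or 194 CPM (interval 143 to 257) against 12.7 (0.321 to 70.6). S100a6, a calcium-binding protein, gave 1010 UMIs in wild-type 3, 55 in wild-type 1, 23 in knock-out 1, 1 in wild-type 2 and 0 elsewhere (4085 against 1002 CPM, log2 ratio 2.01). Lgals1, encoding galectin-1, stood at 416.5 against 50.7 CPM (log2 ratio 2.63), S100a4 at 348 against 50.7 CPM, and Ccnd2, a G1 cyclin, had a log2 ratio of 1.66. Most of these genes are abundant in the other immune cells, where S100a6 stood at 6724 CPM with a UMI in 97.6% of cells, S100a4 at 3812, Lgals1 at 1748 and Itgb1 at 267. The part of RNA from other cells in these ratios was not tested.

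Most genes of the activation list and several homing genes were lower in wild-type 3. Cxcr4, the receptor for CXCL12, stood at 198 CPM there (interval 147 to 262) and at 334, 1600, 1510 and 277 CPM in wild-type 1, 2, 4 and 5. In knock-out 1, the only knock-out animal with more than 1 B cell, Cxcr4 stood at 578 CPM. Cd69, an early activation antigen that also retains cells in tissue, stood at 133.5 CPM in wild-type 3, at 460, 364, 755 and 555 CPM in wild-type 1, 2, 4 and 5, and at 661 in knock-out 1. These values per animal rest on few UMIs. All B cells of wild-type 2, 4 and 5 held 13880, 4059 and 7312 UMIs. In the Jchain-low cells of the other wild-type animals together, Cxcr4 gave 38 UMIs and Cd69 gave 23. Ccr7, which guides cells to lymph nodes, stood at 52.6 CPM against 215.5 in the pooled other animals. Of the activation list 2 of 12 genes were higher in wild-type 3 (median -1.27), Ccnd2 and Jun, and of the homing list 3 of 14 (median -0.264). Those 3 were Itgb1, which led the ranking above with a log2 ratio of 2.71, Cxcr5 and Cxcr3, the last with 1 UMI in wild-type 3. Ccr9, Ccr10 and Ackr3 of that list gave 0 UMIs in Jchain-low cells.

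One macrophage gene differed between the animals' B cells. Apoe, a macrophage gene, was the gene most reduced in wild-type 3 relative to the others (12.1 against 495 CPM), and 28 of its 39 UMIs outside wild-type 3 came from wild-type 2. The summed level of the 8 macrophage markers in B cells ranged over animals with 3 or more B cells from 0 to 2037 CPM, the highest being all Apoe in wild-type 2. C1qc, Csf1r and Fcgr1 were at 0 in every B cell, and C1qa, C1qb, Mrc1 and Adgre1 gave 1 to 4 UMIs each in all. The part of this signal in the differences between animals was not tested.

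Of 13 cytokine and lymphotoxin genes 7 had no UMI in B cells, and all 16 survival and cytokine receptors had one. Ltb, encoding lymphotoxin beta, stood at 570 CPM in Jchain-low cells and 8.06 in Jchain-high cells. Il10, Il6, Il4, Il13, Ifng, Csf2 and Ccl22 gave 0 UMIs in all 111 B cells. Of the receptors for the survival factors BAFF and APRIL, Tnfrsf13c (BAFF receptor) stood at 144 CPM in Jchain-low and 40.3 in Jchain-high cells, Tnfrsf17 at 0 and 403, and Tnfrsf13b (TACI) at 172 and 185. Bcl6, a regulator of the germinal centre, where B cells mutate their receptors, gave 12 UMIs. Il20rb gave 1 UMI in these cells, from wild-type 3, which is too few to check the genotype labels. Il10rb, a chain of the IL-10 and IL-22 receptors, stood at 46.6 CPM in B cells against 104.5 in the rest.

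Genes linked to eosinophils, picked after their values were seen, lay mostly in the B lineage here. Il5ra, the IL-5 receptor chain, gave 30 UMIs in the whole series, of which 14 were in Jchain-low B cells, 7 in Jchain-high B cells and 5 in the cells outside the gate. Prg2, eosinophil major basic protein, gave 56 UMIs, 12 in Jchain-high B cells, 43 in the cells outside the gate, 0 in Jchain-low B cells and 1 elsewhere. A single cell of wild-type 3 outside the gate held 26 of the 56. Of the cells of wild-type 3 came 27 of the Il5ra and 50 of the Prg2 UMIs.

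Within B cells the planned comparison of genotypes gene by gene could not be fitted, because only 1 knock-out animal had 3 or more B cells. With 1 cell per animal allowed (5 against 4 animals), edgeR called 0 of 106 genes, with 6 at an unadjusted p under 0.05. The B lineage genes were therefore tested in the UMI sums of all CD45+ cells of each animal, where fewer B cells and less RNA per B cell cannot be told apart. By edgeR's quasi-likelihood test with Benjamini-Hochberg adjustment, 4 of 10175 genes (0.0393%) had lower sums with the knock-out and 0 had higher ones. Of the B cell list 19 of 30 genes had enough counts to be tested and 0 were called. By the same edgeR test 2 were lower at an unadjusted p under 0.05, against 3.68% of all genes. In direction alone 15 of 19 were lower, against 4964 of all 10175 genes (median log2 -0.458, against 0.0054 for all genes).

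For Cd79a, the level in the sums was 15.0, 11.2, 120, 4.13 and 3.98 CPM in wild-type 1 to 5 and 8.12, 0.776, 3.68, 4.97 and 0 in knock-out 1 to 5 (scaled by edgeR's TMM method). The groups overlapped, and wild-type 3 stood far above the rest. The edgeR log2 fold change, knock-out over wild type, was -3.04 ± 1.17 (SE, adjusted p = 0.651). Ighm, at 4973 CPM in wild-type 3 and 55.3 to 550 in the other 9 animals, gave -3.26 ± 1.33 (edgeR adjusted p = 0.683). Without wild-type 3 the median of the B cell list was -0.179, and again 0 genes of the list were called.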

How the data were processed

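Droplet single-cell RNA was measured in 6054 CD45+ esophagus cells, run in 2 wells, from 5 wild-type mice and 5 that lack Il20rb. The authors deposited raw UMI counts per gene and cell, with each cell's hashtag animal; Cell Ranger 6.0.1, R 4.0.5 and mm10 are named without roles in the submitters' processing notes, and the hashtag caller is not given in the sources used here. Of 32285 gene IDs 32158 paired with a symbol. Cells held 1000 to 52182 UMIs, and no further cell filter was applied. Animals held 1805883 to 5666994 UMIs. Whether the animals were littermates or handled on different days is not stated.

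B cells were selected and divided by Jchain (5 UMIs) as described. Pooled ratios added 20 CPM and carry counting intervals only (exact Poisson for levels, exact binomial by Clopper-Pearson for shares, 95%; a count of 0 allows 3 counts). Shares were compared over animals by 2-sided exact permutation (252 splits), Benjamini-Hochberg adjusted over 4 tests. UMI sums per animal were tested in edgeR 4.0.16 (limma 3.58.1, R 4.3.3; filterByExpr, TMM, robust quasi-likelihood), with DESeq2 1.42.0 as alternative. On simulated counts for 10172 genes the edgeR test recovered 86.2% of 2-fold and 100% of 4-fold changes, with 8 false calls. Recovery for genes as uneven between animals as Cd79a, at 3.98 to 120 CPM in wild-type animals, was not tested. Other steps used Python 3.11.15, numpy 2.4.6, pandas 2.3.3, scipy 1.17.1 and matplotlib 3.10.9.

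The members and gene lists were chosen with earlier results of these data known. Genes named are those of the gate and lists, with the 4 most abundant of a list preferred, the 15 leading genes of B cells over the rest, the leading genes of ranked contrasts with 30 or more UMIs, the most used variable segments, and Il20rb with its partner chains. The ranked contrasts, the segment pairs with Mki67, and Il5ra and Prg2 were picked after their values were seen. Alternatives changed the gate, depth, well, animals, filter, scaling and test. Some items are not reported here.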

Additional observations from a re-analysis of the deposited data

Results flagged for a closer look

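Of 10 genotype groups of 5 animals examined for a single animal far from the others, 4 held one; chance alone gives about 1 in 20 groups. The B cell share of all cells in wild-type 3 was 9.64%, with a gap to the next animal that took 0.945 of the group's range. The B cell share of cells with Lyz2 under 5 in wild-type 3 was 20.1%, with a gap of 0.982 of the range. Antibody-secreting cells outside the B cell gate made up 0.618% of the cells of wild-type 3 and 0.114% of those of knock-out 1, each against 0 in the other 4 animals of its genotype, so the gap was the whole range (1). Both B cell shares rest on the same 78 cells. The knock-out 1 value rests on 1 cell, and in a group with 4 animals at 0 any value above 0 gives a gap of the whole range.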

How the results depend on the processing

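The B cell share of all cells was lower in knock-out animals under all 19 alternatives (adjusted p from 0.0317 to 0.677, exact permutation). It passed the threshold under 1 of them, with cells thinned to 1000 UMIs and the gate changed to Cd79a without the marker sum. The difference there was -1.85 percentage points (exact permutation, adjusted p = 0.0317), and the parts of depth and gate in it were not tested. The shares of cells with Lyz2 under 5 (adjusted p from 0.111 to 0.73) and of B and Cd3e cells (0.148 to 0.73) were lower in knock-out animals under all 16 alternatives each and never passed. The share of antibody-secreting cells outside the gate, which leaves out the Jchain-high B cells, was lower in 12 of 13 alternatives. Leaving out each animal moved it from -0.132 to 0.0228, and it turned to 0.0228 percentage points higher without wild-type 3, which holds every such wild-type cell. Genes called in CD45+ sums numbered 4 with edgeR, 62 with DESeq2, 7 without a filter on low counts and 2 in well 1 alone; leaving out each animal gave 1 to 5, with 2 without wild-type 4 and 1 without knock-out 4. No gene of the B cell list was called under any of the 16 alternatives; its median log2 fold of -0.458 was -1.65 with DESeq2 and -1.58 without the filter. Of the 15 leading genes, 14 and 11 were kept under the 2 other choices of cells tried. Within B cells, gene tests with 3 or 5 cells per animal could not be fitted for want of knock-out animals; with 1 cell per animal 0 of 106 genes were called by edgeR and 6 had an unadjusted p under 0.05. Its DESeq2 and filter alternatives were not run for the same reason. The other 9 animals held at most 9 B cells each, which limits every value per animal. No paired analysis was possible because each animal has its own hashtag and no label pairs wild-type with knock-out animals; the replicate numbers of the samples are the 2 wells, which hold cells of every animal.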
